A study of Rattus norvegicus with 8 samples.

Results

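In rat nucleus pulposus cells, which fill the soft centre of the intervertebral disc, 6 genes of heme, iron and copper handling were followed. They were chosen by name, with earlier results of these data known. All 6 were found among the 4226 genes of the deposited table: Hmox1, Ftl1, Mt2A, Atp7a, Slc31a2 and Slc39a8. SOD1, the copper- and zinc-dependent superoxide dismutase of the cytosol, had been knocked down in all cells and then supplied by transfection. The wild-type protein was given in 4 libraries (SOD1-WT) and a mutant carrying the lysine-to-arginine substitution K123R in the other 4 (SOD1-K123R). Both groups carry the treatment label lactate, at 10 mM for 7 days by the series' design text. In the table the columns of SOD1-WT are named Ctrl and those of SOD1-K123R are named L, which no label expands, so that by the column names alone lactate exposure and the substitution cannot be told apart. Library identifiers form a separate run in each group, so handling and group cannot be told apart either, and the labels do not say whether replicates were separate cultures. The p-values therefore measure only the spread between these libraries, which may be technical. Cells were analysed in bulk, so a change in the kinds of cells present and a change in RNA per cell cannot be told apart.

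Heme and the metals iron, copper and zinc serve as cofactors but are harmful when free, so cells bind, store or export what they do not use. Heme oxygenase opens the heme ring and releases iron, biliverdin and carbon monoxide, biliverdin reductase converts biliverdin to bilirubin, and ferritin stores the iron in a shell of heavy and light chains. Copper enters through the transporters of the SLC31 family, is carried to its enzymes by chaperones, and is pumped into the secretory pathway or out of the cell by ATP7A, while metallothioneins, small cysteine-rich proteins, bind zinc and copper in the cytosol. The nucleus pulposus has almost no blood vessels and its cells live in a lactate-rich matrix.

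Values are TPM, a measure of transcript abundance corrected for transcript length, so levels of different genes can be set side by side. Fold changes are SOD1-K123R minus SOD1-WT on the log2(TPM + 1) scale, with the standard error (SE) of limma. The threshold for passing was an adjusted p (Benjamini-Hochberg) under 0.05 over the 2890 genes tested. All 6 genes reached the filter for testing (a mean TPM of 1 or more). Of these, 5 rose and 1, Slc39a8, fell, and all 6 passed; in the table as a whole 95.7% of tested genes passed, 44.6% upward and 51.1% downward, so passing does not set these genes apart. For none of the 6 did SOD1-WT and SOD1-K123R values overlap, as for 91.4% of tested genes (42.6% higher and 48.8% lower in SOD1-K123R). The median log2 fold change was 1.55 over the 6 genes and -0.49 over all tested genes. With a filter at a mean TPM of 5, which all 6 genes reached, the median over tested genes was 0.27. The median absolute log2 fold change was 1.68 over the 6 genes and 1.14 over all tested genes. Together the 6 genes held 0.575% ± 0.0619 of a SOD1-WT library's full TPM total and 2.02% ± 0.124 of a SOD1-K123R library's, most of it Ftl1 (means with SD, n = 4 per group, as for all means that follow). The plot of TPM by library shows the separation for each gene.

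**Figure D1:**
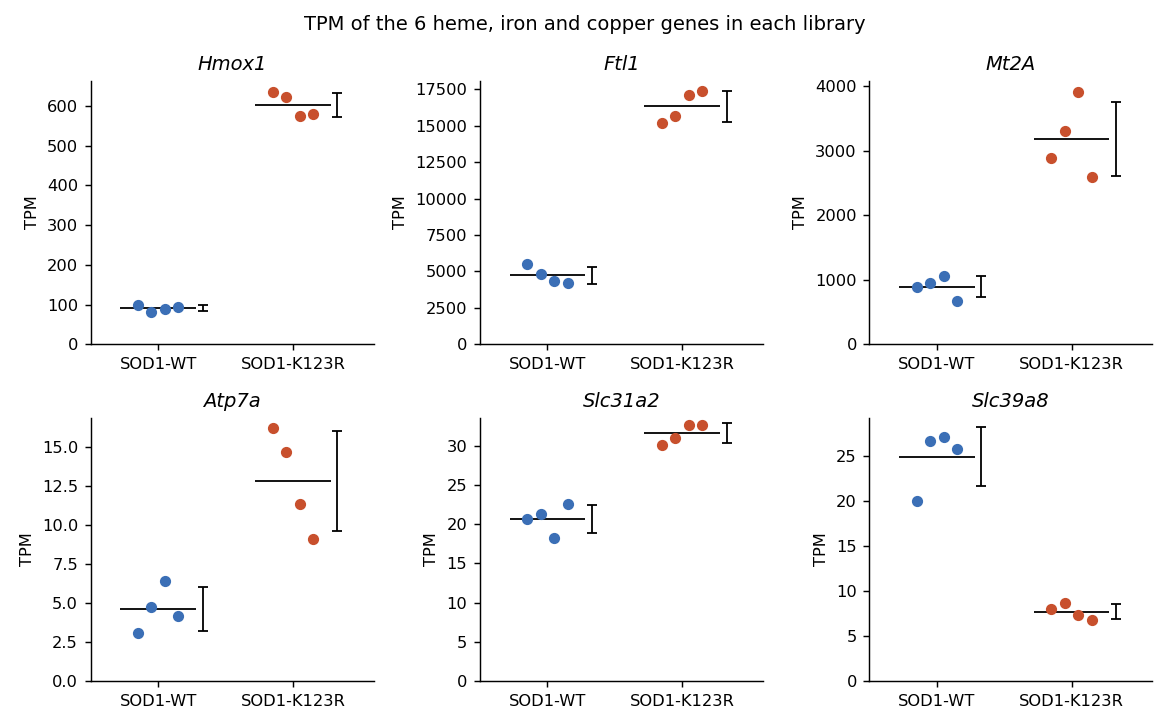
TPM (linear axis from 0) of the 6 genes in the 4 SOD1-WT libraries (blue points) and the 4 SOD1-K123R libraries (orange points), in the order of replicates 1 to 4; horizontal bars are means and error bars are SD. Hmox1, Ftl1, Mt2A, Atp7a and Slc31a2 were higher and Slc39a8 was lower in every SOD1-K123R library than in any SOD1-WT library.

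In heme breakdown, the transcript of Hmox1, of the first step, rose and that of Blvra, of the next step, fell. Hmox1, the inducible heme oxygenase, read 98.3, 81.1, 89.0 and 94.8 TPM in SOD1-WT replicates 1 to 4. In SOD1-K123R replicates 1 to 4 it read 635, 623, 574 and 581 TPM. Every SOD1-K123R library was several times above the highest SOD1-WT library, and the spread within each group was small. The mean TPM was 6.65 times that of SOD1-WT (log2 fold change 2.72, SE 0.08, limma adjusted p = 8.35e-11), the 39th highest fold change of the 2890 genes, and its place among all rows by level went from 238th to 61st. Blvra, biliverdin reductase A, which acts on the product of heme oxygenase, went from 25.9 ± 2.33 to 7.28 ± 0.989 TPM (log2 fold change -1.70, SE 0.11, limma adjusted p = 2.84e-08). The within-library ratio of Hmox1 to Blvra, which a common factor for all genes of a library cannot alter, was 2.92 to 3.84 in SOD1-WT and 67.7 to 95.3 in SOD1-K123R.

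Among 16 named genes of heme breakdown, transport and control, 6 were tested, of which 3 rose, 2 fell and 1 did not pass (median log2 fold change 0.55). Without Hmox1, 2 of 5 rose and 2 fell. With 44.6% of all tested genes passing upward and 51.1% downward, these counts do not set the list apart. Besides Hmox1, the transporters Slc48a1 and Flvcr2 rose. Slc48a1, which moves heme out of endosomes and lysosomes into the cytosol, went from 64.4 ± 3.43 to 129 ± 4.23 TPM. Flvcr2, a choline and putative heme transporter by the deposited description, went from 3.80 ± 0.675 to 11.1 ± 0.826 TPM. Slc46a1, the proton-coupled folate carrier that can also take up heme, fell from 9.35 ± 0.585 to 2.23 ± 0.524 TPM. Hpx, the plasma protein hemopexin, which binds free heme, had 2.54 ± 0.493 and 2.79 ± 0.413 TPM (log2 fold change 0.10, limma adjusted p = 0.460). It did pass, upward, after median-of-ratios scaling and after quantile normalization (log2 fold changes 0.45 and 0.43, limma adjusted p = 0.00451 and 0.00646). Abcg2, an exporter of heme and many drugs, lay under the 1 TPM filter with means of 0.688 and 0.173 TPM.

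Of 15 named genes of heme synthesis 5 were tested, of which 3 fell, 1 rose and 1 did not pass (median log2 fold change -1.02); with 51.1% of all tested genes lower, this count does not set the list apart. Uros, uroporphyrinogen III synthase, fell from 2.61 ± 0.283 to 0.473 ± 0.243 TPM, and Cpox, coproporphyrinogen oxidase, from 7.89 ± 0.925 to 3.35 ± 0.416 TPM. Abcb10, a transporter of the mitochondrial inner membrane needed for heme formation, fell from 5.72 ± 0.451 to 2.33 ± 0.411 TPM. Alas1, the enzyme of the first and rate-limiting step, rose a little, from 38.4 ± 2.75 to 49.1 ± 2.38 TPM (log2 fold change 0.35, SE 0.08, limma adjusted p = 0.00168), a call that ended after quantile normalization (log2 fold change 0.19, limma adjusted p = 0.0624) and with equal column sums (0.04, limma adjusted p = 0.714). Slc25a38, the mitochondrial glycine carrier of this pathway, had 19.9 ± 3.84 and 22.0 ± 2.45 TPM (log2 fold change 0.14, limma adjusted p = 0.304), and passed only after median-of-ratios scaling (0.60, limma adjusted p = 0.00774). Iron-sulfur cluster assembly gave 2 tested genes of 23 named, and both fell, as did 51.1% of all tested genes. Lyrm4, a partner of the cysteine desulfurase, went from 8.48 ± 0.389 to 2.30 ± 0.571 TPM, and Iba57, a late assembly factor, from 3.46 ± 0.171 to 0.728 ± 0.201 TPM. Cisd2, an iron-sulfur protein of the endoplasmic reticulum and mitochondria and the 1 tested gene of 14 named for iron regulation, fell from 28.2 ± 3.59 to 10.6 ± 1.31 TPM.

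**Figure D2:**
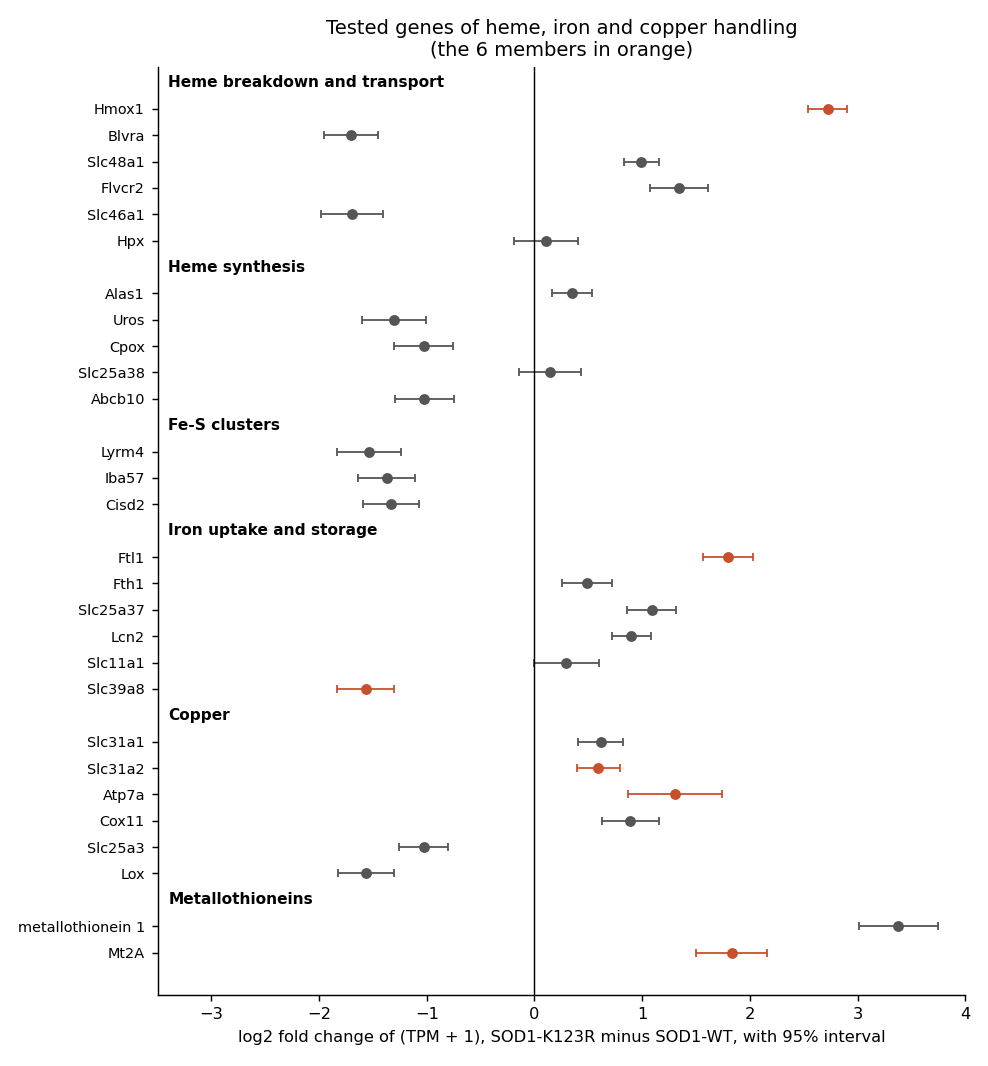
Log2 fold change of (TPM + 1), SOD1-K123R minus SOD1-WT, with limma's 95% interval, for tested genes grouped by role; the 6 genes are orange and other genes grey. The highest values are those of metallothionein 1 (3.38) and Hmox1 (2.72), while the 3 heme synthesis genes that fell and the 3 iron-sulfur genes lie between -1.54 and -1.02.

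Ferritin light chain was the most abundant transcript of the table in SOD1-K123R. Ftl1, which encodes that chain, read 5501, 4788, 4361 and 4232 TPM in SOD1-WT replicates 1 to 4. In SOD1-K123R replicates 1 to 4 it read 15196, 15688, 17113 and 17376 TPM. Every SOD1-K123R library was above the highest SOD1-WT library; the gene ranked 5th to 7th of 4226 in the SOD1-WT libraries and 1st in each SOD1-K123R library. The log2 fold change was 1.80 (SE 0.11, limma adjusted p = 1.07e-08), a ratio of means of 3.46. Ftl1 alone went from 0.472% ± 0.0572 to 1.63% ± 0.107 of the full TPM total.

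Fth1, the ferritin heavy chain, which holds the site that oxidizes iron, changed far less. It went from 3562 ± 374 to 4985 ± 500.3 TPM (log2 fold change 0.49, SE 0.11, limma adjusted p = 0.000725), and the call ended with equal column sums (log2 fold change 0.17, limma adjusted p = 0.163). The table also lists Fth1-ps5, described as a heavy chain pseudogene, at 3235 ± 291 and 4735 ± 473 TPM, close to the level of Fth1 itself, so reads of near-identical copies could have been split between these rows and neither level is certain. A further 6 rows are described as light chain copies, of which the highest, LOC120102993, had 21.8 ± 2.25 and 75.8 ± 9.20 TPM; Ftl1 held 99.5% ± 0.0554 and 99.5% ± 0.0345 of the light chain sum. Summed over copies, light chain went from 4745 ± 573 to 16425 ± 1073 TPM and heavy chain from 6797 ± 641 to 9719.7 ± 947 TPM. The ratio of light to heavy chain TPM within a library was therefore 0.668 to 0.735 in SOD1-WT and 1.58 to 1.84 in SOD1-K123R with copies summed, and 1.23 to 1.41 and 2.99 to 3.62 for Ftl1 to Fth1. Heavy chain TPM exceeded light chain TPM in every SOD1-WT library and fell short of it in every SOD1-K123R library once copies were summed.

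The 6 within-library ratios given here were chosen after the values had been seen, so they are a description and carry no test. Those of Hmox1 to Blvra, of light to heavy chain (with copies summed and for Ftl1 to Fth1), of metallothionein 1 to Mt2A and of Atp7a to Slc31a1 were higher in 4 of 4 SOD1-K123R libraries than in any SOD1-WT library. The ratio of Slc31a1 to Slc31a2 overlapped between the groups.

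**Figure D3:**
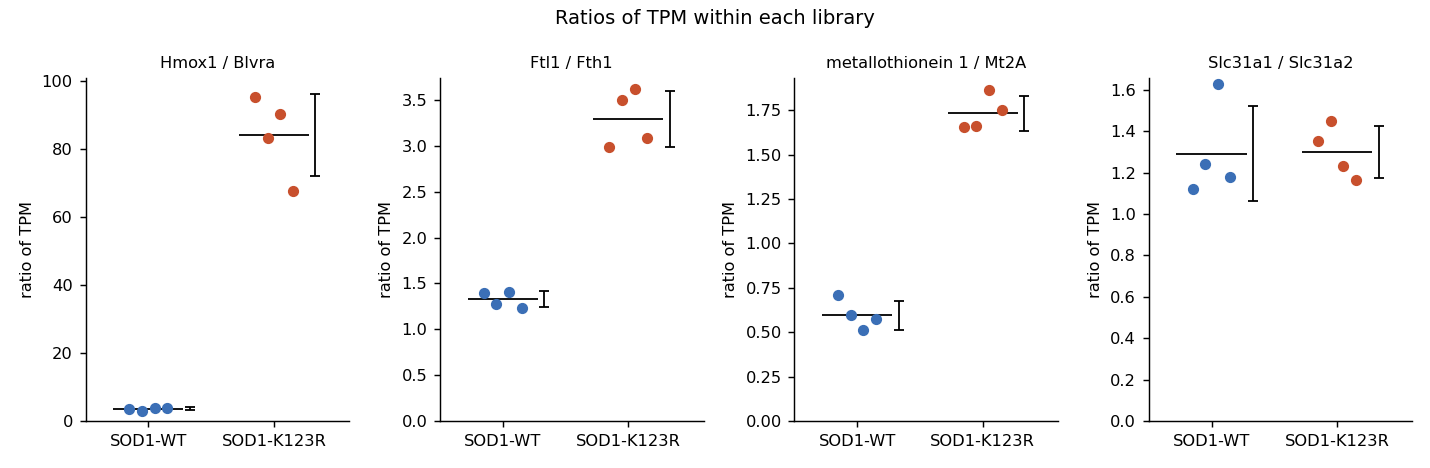
Ratios of TPM within each library (linear axes from 0) for 4 gene pairs; points are libraries (SOD1-WT blue, SOD1-K123R orange), bars are means and error bars SD, n = 4 each. Hmox1 to Blvra, Ftl1 to Fth1 and metallothionein 1 to Mt2A do not overlap between the groups, whereas Slc31a1 to Slc31a2 (1.12 to 1.63 and 1.17 to 1.45) does.

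Of 23 named genes of iron uptake, storage and export, 6 were tested: 4 rose, 1 fell and 1 did not pass (median log2 fold change 0.69). The shares over all tested genes were 44.6% upward and 51.1% downward. Slc25a37, mitoferrin, which carries iron into mitochondria, rose from 52.9 ± 5.80 to 114 ± 12.8 TPM, and Lcn2, lipocalin, which binds iron-loaded siderophores, from 295 ± 27.6 to 549.5 ± 17.9 TPM. Slc11a1, a metal transporter of phagosomes, was near the filter at 0.843 ± 0.159 and 1.28 ± 0.414 TPM (log2 fold change 0.29, limma adjusted p = 0.0585). With all libraries kept it passed, with a log2 fold change of 0.53, once columns were scaled by median of ratios (limma adjusted p = 0.00214), with 0.51 after quantile normalization (limma adjusted p = 0.00333) and without a mean-variance trend (limma adjusted p = 0.0498). It also passed without SOD1-WT replicate 3 (limma adjusted p = 0.0398) and without SOD1-K123R replicate 2 (limma adjusted p = 0.0274). Slc40a1, the iron exporter ferroportin, lay under the filter with 0.468 ± 0.0995 and 0.230 ± 0.0730 TPM. Steap4, a reductase of iron and copper, read 0.10 to 0.62 TPM in SOD1-WT and is listed at 0 in all SOD1-K123R libraries.

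Slc39a8 was the 1 member of the 6 that fell. It encodes a plasma membrane importer of zinc, manganese, iron and cadmium, and was also the 1 zinc importer tested of 14 named. The gene read 20.01, 26.6, 27.1 and 25.8 TPM in SOD1-WT replicates 1 to 4, and 7.95, 8.68, 7.35 and 6.78 TPM in SOD1-K123R replicates 1 to 4. The groups lay far apart, with SOD1-WT replicate 1 the lowest of its group. The log2 fold change was -1.57 (SE 0.12, limma adjusted p = 8.62e-08), the 367th lowest of the genes tested, and its place by level went from 714th to 1419th of all rows. No zinc exporter of 11 named was among the genes analysed here.

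Mt2A rose, and a row described as another metallothionein rose more. Mt2A, metallothionein 2A, read 887, 956, 1057 and 671 TPM in SOD1-WT replicates 1 to 4. In SOD1-K123R replicates 1 to 4 it read 2885, 3306, 3920.2 and 2598 TPM. The groups did not overlap, and in both groups replicate 3 was the highest and replicate 4 the lowest. The log2 fold change was 1.83 (SE 0.15, limma adjusted p = 1.65e-07). A row named AC128848.1 carries the description metallothionein 1; it was singled out after its values were seen. This row read 626, 567, 539 and 384 TPM in SOD1-WT and 4773, 5493.5, 7296 and 4549 TPM in SOD1-K123R. Its mean rose 10.4-fold (log2 fold change 3.38, SE 0.17, limma adjusted p = 2.81e-09), the 13th highest fold change of all genes tested, and it became the 5th most abundant row. In SOD1-WT metallothionein 1 was below Mt2A in every library (ratio 0.511 to 0.706), and in SOD1-K123R it was above it in every library (1.65 to 1.86). Both are short genes of similar sequence, so reads could have been shared between them. Their summed TPM went from 1422 ± 247 to 8705.5 ± 1811. Such sharing would leave this sum unaltered only if both transcripts had the same length, which is not given here.

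The upstream sequences of the RefSeq genes Mt1 and Mt2A are shown because Mt2A and the row described as metallothionein 1 rose, and because their family is known for metal response elements (MRE), the binding sites of the zinc-sensing transcription factor MTF1. The row AC128848.1 is linked to RefSeq's Mt1 by its description alone, since the reference table gives no Ensembl identifier for Mt1. In RefSeq's annotation of the rat GRCr8 assembly Mt1 and Mt2A are neighbours, followed by Mt3 and Mt4. The 250 bases before each start site are written 5′ to 3′ on the gene's strand, with matches of the MRE core in capitals (TGCACNC or TGCGCNC, on either strand). The Mt1 window is chr19:10832976-10833225 and that of Mt2A is chr19:10838709-10838958, both on the minus strand.
Mt1: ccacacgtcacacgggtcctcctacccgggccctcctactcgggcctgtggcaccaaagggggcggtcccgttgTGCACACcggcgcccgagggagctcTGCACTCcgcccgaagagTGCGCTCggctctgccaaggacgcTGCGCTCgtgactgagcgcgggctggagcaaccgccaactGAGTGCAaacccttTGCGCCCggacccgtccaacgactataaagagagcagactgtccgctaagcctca
Mt2A: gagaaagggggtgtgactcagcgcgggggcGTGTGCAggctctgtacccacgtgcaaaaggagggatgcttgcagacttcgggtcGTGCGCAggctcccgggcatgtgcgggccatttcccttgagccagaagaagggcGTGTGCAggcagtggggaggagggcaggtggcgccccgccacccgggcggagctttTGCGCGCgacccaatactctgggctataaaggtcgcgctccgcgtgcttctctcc
The Mt1 window holds 6 matches and the Mt2A window 4. At least 1 match is found in 20.6% of the 33469 RefSeq windows of this length, at least 4 in 0.266% and at least 6 in 0.0269%. In both windows the match nearest the start site begins 55 bases upstream of it. Of the other members, Slc31a2 has 1 match, beginning 139 bases upstream, and Slc39a8 and Atp7a have none. The core of the antioxidant response element bound by NRF2 and, in repression, by the heme-sensing factor BACH1 (TGACNNNGC, either strand) occurs once each in the windows of Mt1, Mt2A, Slc31a2 and Slc39a8 and in 10.1% of all windows; in neither metallothionein window does it overlap an MRE match. A match of letters is a description of the sequence and shows no binding. Sequence tables gave a window for 4 of the 6 genes, the others being Hmox1 and Ftl1.

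Both copper transporters of the SLC31 family and the copper pump rose, while the mitochondrial copper carrier fell. Atp7a, the copper pump of the Golgi and plasma membrane, read 3.09, 4.76, 6.43 and 4.17 TPM in SOD1-WT replicates 1 to 4. In SOD1-K123R replicates 1 to 4 it read 16.2, 14.6, 11.3 and 9.08 TPM. The groups did not overlap, but the SD was larger relative to the mean than for the other 5 genes, and only 6.43 and 9.08 TPM separated the highest SOD1-WT from the lowest SOD1-K123R library. The log2 fold change was 1.30 (SE 0.20, limma adjusted p = 4.03e-05), with a ratio of means of 2.78. Its liver-type relative Atp7b lay under the filter with 0.300 ± 0.0800 and 0.0775 ± 0.0613 TPM.

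Slc31a2 showed the smallest change of the 6. It encodes the lower-affinity copper transporter of endosomes and the plasma membrane, and read 20.7, 21.3, 18.25 and 22.6 TPM in SOD1-WT replicates 1 to 4. In SOD1-K123R replicates 1 to 4 it read 30.1, 31.0, 32.65 and 32.7 TPM. The groups lay apart with little spread in either. The log2 fold change was 0.59 (SE 0.09, limma adjusted p = 4.11e-05), a ratio of means of 1.53 and the 1146th highest of the genes tested. Its size followed the scaling, from 0.29 with equal column sums (limma adjusted p = 0.0152) to 1.05 after median-of-ratios scaling (limma adjusted p = 6.03e-06). Slc31a1, the high-affinity copper importer, rose from 26.5 ± 2.68 to 41.0 ± 2.83 TPM (log2 fold change 0.62, SE 0.10). The ratio of Slc31a1 to Slc31a2 within a library was 1.29 ± 0.229 in SOD1-WT and 1.30 ± 0.126 in SOD1-K123R. By contrast the ratio of the pump Atp7a to the importer Slc31a1 went from 0.172 ± 0.0354 to 0.311 ± 0.0678.

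Of 15 named genes of copper uptake, chaperones and export, 5 were tested, of which 4 rose and 1 fell (median log2 fold change 0.62). Without the members Atp7a and Slc31a2, 2 of 3 rose and 1 fell. Over all tested genes, 44.6% passed upward and 51.1% downward. Cox11, a copper chaperone of cytochrome oxidase, rose from 5.96 ± 0.826 to 11.9 ± 1.29 TPM. Slc25a3, the mitochondrial carrier of phosphate and copper, fell from 56.5 ± 7.00 to 27.1 ± 2.52 TPM. Lox, the copper-dependent lysyl oxidase that cross-links collagen and the 1 copper enzyme tested of 15 named, fell from 1061 ± 182 to 355 ± 24.4 TPM. Of 12 named genes of protein lipoylation and copper toxicity only Lipt2, a lipoyltransferase, was tested, and it fell from 3.58 ± 0.456 to 1.04 ± 0.227 TPM. SOD1 itself, the copper enzyme that was replaced, and its copper chaperone were not analysed here.

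**Figure D4:**
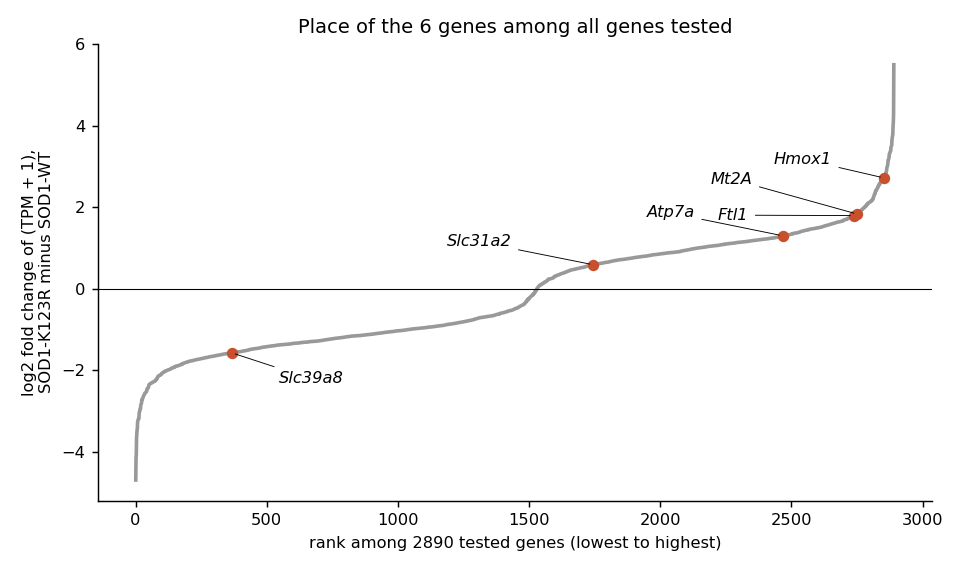
Log2 fold changes of (TPM + 1), SOD1-K123R minus SOD1-WT, of all 2890 genes tested, ordered from lowest to highest (grey line), with the 6 genes marked in orange. Hmox1 (2.72), Mt2A (1.83) and Ftl1 (1.80) lie on the upper shoulder of the curve, Slc31a2 (0.59) near the middle and Slc39a8 (-1.57) in the lower part.

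Hmox1 and Ftl1 are targets of NRF2, and 12 of 27 named genes of the NRF2 and BACH1 pathway were tested. Of these 10 rose, 1 fell and 1 did not pass (median log2 fold change 0.72), Hmox1, Ftl1 and Fth1 being 3 of those that rose. Over all tested genes, 44.6% passed upward and 51.1% downward. The list was chosen with earlier results of these data known, and whether NRF2 took part in these changes was not tested. Nfe2l2, which encodes NRF2, went from 69.8 ± 13.7 to 125 ± 23.3 TPM. Its small partner proteins of the MAF family also rose, Maff from 125 ± 18.6 to 284 ± 18.6 TPM and Mafk from 35.9 ± 2.68 to 55.1 ± 1.92 TPM. Tkt, transketolase of the pentose phosphate pathway, had a log2 fold change of 1.58 and Sqstm1, the autophagy receptor that also binds the NRF2 inhibitor KEAP1, of 0.90. Gpx2, a glutathione peroxidase, was the gene that fell (2.63 ± 0.389 to 1.22 ± 0.232 TPM), and Osgin1, a growth inhibitor induced by oxidative stress, had 3.11 ± 0.768 and 3.85 ± 0.357 TPM (limma adjusted p = 0.122). Osgin1 passed after median-of-ratios scaling and quantile normalization (limma adjusted p = 0.00310 and 0.00432). The rise of Taldo1, transaldolase (325 ± 35.4 to 451 ± 20.9 TPM), ended after quantile normalization (limma adjusted p = 0.482) and with equal column sums (0.128).

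Ferroptosis is a form of cell death driven by iron and lipid peroxidation. Of 25 genes named for it 7 were tested, 5 of which rose and 2 fell (median log2 fold change 1.06). Hmox1, Ftl1, Fth1 and Slc39a8 are 4 of these 7. The other genes that rose were Sat1, an enzyme of polyamine breakdown (283 ± 20.7 to 692 ± 47.5 TPM), and Hspb1, a small heat shock protein (489 ± 66.2 to 1016 ± 83.1 TPM). Dhodh, a mitochondrial dehydrogenase that reduces ubiquinone, fell from 20.7 ± 3.91 to 3.50 ± 0.953 TPM. Across all 13 metal and redox lists 40 of 194 named genes were tested, with 22 higher, 14 lower and 4 that did not pass; without the 6 members the counts were 17, 13 and 4 of 34. With 95.7% of all tested genes passing, 44.6% upward and 51.1% downward, these counts describe directions within the lists and no more.

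Genes with the most similar profile were sought for each member by the root mean square difference of log2(TPM + 1) over the 8 libraries, after each gene's SOD1-WT mean had been subtracted. The nearest to Hmox1 were Nptx1 (0.0780) and Jag2 (0.124), which rose from means of 0.110 and 0.440 TPM. Tbkbp1 and Banp were nearest to Ftl1 (0.0905 and 0.106), and Tbkbp1 and Plau to Mt2A (0.205 and 0.212). Tbkbp1 had a SOD1-WT mean of 0.345 TPM. With a pseudocount of 0.1 its log2 fold change was 3.11, against 1.80 for Ftl1 and 1.83 for Mt2A. Those of Nptx1 and Jag2 were then 4.955 and 3.915, against 2.73 for Hmox1, so the likeness of these low genes rests on the pseudocount. For Atp7a they were Rab5al1 (0.0829) and Suco (0.0975), for Slc31a2 Calr (0.0295) and Limk2 (0.0526), and for Slc39a8 Efnb2 (0.0776) and Tfg (0.0784). After quantile normalization Calr did not pass (log2 fold change 0.01, limma adjusted p = 0.908), while Slc31a2 kept 0.56. The measure follows mainly the difference between the groups, which most genes of the table show.

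Markers of other cells were few. Macrophages recycle heme iron and express Hmox1 strongly. Of 14 of their markers 2 were in the table, and the summed TPM was 5.44 to 8.04 in SOD1-WT and 23.4 to 30.9 in SOD1-K123R. Cd68, which is also a lysosomal protein of other cells, made up nearly all of it, rising from 6.89 ± 1.05 to 26.0 ± 3.56 TPM, while Lyz2, a lysozyme of macrophages, had means of 0.0250 and 0.873 TPM. Their part in the rise of Hmox1, Ftl1 and Slc48a1 was not tested. None of 11 erythroid markers was analysed here, and the 1 endothelial marker of 8 in the table, Pecam1, had means of 0.175 and 0.385 TPM. Of 17 names for nucleus pulposus markers 7 were in the table, with summed TPM of 24.4 to 29.3 and 32.1 to 49.3. Of the 6 tested, 3 rose and 3 fell, near the shares over all tested genes (44.6% upward and 51.1% downward). Cd24, a surface marker of these cells, rose from 10.1 ± 1.43 to 31.2 ± 6.44 TPM. Sox9, a transcription factor of cartilage, read 0.27 to 0.49 TPM in SOD1-WT and rose to between 2.67 and 3.87 TPM in SOD1-K123R, and the carbonic anhydrase Car12 from 0.778 ± 0.226 to 3.27 ± 0.707 TPM. The cadherin Cdh2 fell from 9.43 ± 0.432 to 2.96 ± 0.451 TPM and the carbonic anhydrase Car3 from 5.28 ± 1.48 to 0.893 ± 0.297 TPM. The cartilage collagen Col2a1 was listed at 0 in all SOD1-WT libraries and at 0.0200 to 0.0800 TPM in SOD1-K123R, and Acan, aggrecan, fell from 1.545 ± 0.419 to 0.645 ± 0.0998 TPM, so these defining matrix genes were at or near 0 while Cd24 was not.

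The scaling of the libraries bears on all of these sizes. The deposited rows summed to 19.3% ± 0.526 of the full TPM total in SOD1-WT and 24.0% ± 0.334 in SOD1-K123R. Median-of-ratios scaling moved the typical log2 fold change by 0.42, quantile normalization by 0.20 and equal column sums by -0.28. Each of the 6 genes kept its direction and passed under all 3, with log2 fold changes of 2.41 to 3.20 for Hmox1, 1.45 to 2.28 for Ftl1, 1.35 to 2.32 for Mt2A, 1.03 to 1.72 for Atp7a and -1.86 to -1.12 for Slc39a8 over all alternatives.

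**Figure D5:**
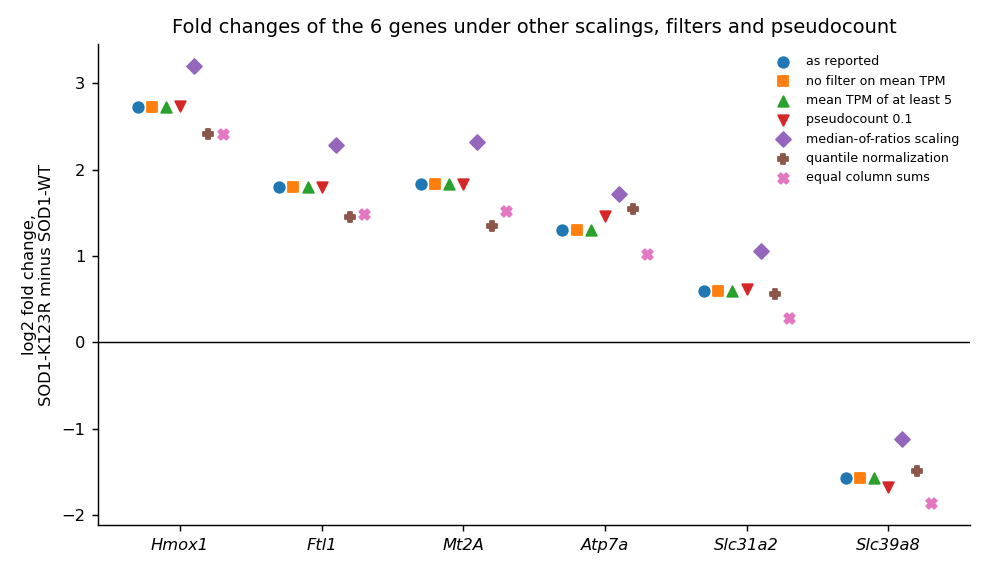
Log2 fold changes, SOD1-K123R minus SOD1-WT, of the 6 genes as reported and under 6 other settings of filter, pseudocount and scaling (symbols). No gene crosses 0; Slc31a2 comes closest, at 0.29 with equal column sums.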

How the data were processed

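The authors deposited 1 table of TPM per gene, made with RSEM per the table's name; DESeq2 is named without a role, per the submitters' processing notes. Per the labels, total RNA was taken with TRIzol and sequenced in pairs on an Illumina NovaSeq. For aligner, build and annotation: not given in the sources used here. TPM keep no read counts, so depth is unknown and no counting interval was set. The columns sum to less than the full TPM total, so only some genes are listed, by a rule that is not given. Tested were the 2890 of 4226 genes with a mean TPM of 1 or more, on log2(TPM + 1) with limma 3.58.1 (lmFit, eBayes with trend) in R 4.3.3, two-sided, with Benjamini-Hochberg adjustment over all of them; the script was tested on simulated data. The log2(TPM + 1) scale understates changes of low genes. Ratios within a library were not tested.

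The members and lists were chosen with earlier results of these data known. Of the 13 metal and redox lists, tested genes were named in full where 8 or fewer, otherwise the 6 with the smallest adjusted p, those that did not pass and some chosen after their values were seen (Nfe2l2, Gpx2, Taldo1, genes under the filter); lists were matched by exact symbol, and 4 more lists hold cell type markers. A few genes are not reported here and do not enter the list counts. Promoter windows come from RefSeq on GRCr8, for the sequences alone. Same-numbered libraries did not deviate together (correlations across genes of -0.35, 0.016, -0.204 and 0.0536 for replicates 1 to 4). Differently numbered ones gave -0.4 to 0.444. With so few libraries this cannot show whether the design was paired, and the main fit did not pair them. Alternatives covered the filter, the pseudocount, 3 scalings, the variance model, a replicate block and leaving out each library; summing ferritin copies was chosen after seeing the data.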

Additional observations from a re-analysis of the deposited data

Results flagged for a closer look

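Among 59 genes followed, 3 of 118 groups held a library far from the other 3 of its group; chance alone gives about 1 in 20 such groups. For Taldo1 it was SOD1-K123R replicate 4, at 482 TPM where replicates 1 to 3 had 440 to 443 (TPM). For Gpx2 it was replicate 1 of SOD1-K123R, at 1.56 TPM against a range of 1.06 to 1.13 in the others. For Car3, a nucleus pulposus marker, it was SOD1-WT replicate 2, at 7.48 TPM where the others had 4.38 to 4.78 TPM. None of the 6 members had such a library in either group.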

How the results depend on the processing

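Each of the 6 genes kept its direction and its call in every alternative run, 16 for each gene and 17 for Ftl1, whose light chain sum gave a log2 fold change of 1.80. With a replicate block 1282 genes were higher and 1461 lower, and none of the 6 calls changed. At a mean TPM of at least 5, 948 of 1896 tested genes were higher and 897 lower, in place of 1289 and 1476 of 2890. The balance of directions thus depended on the filter, and the median log2 fold change was 0.27 in place of -0.49. By the same filter 1 heme synthesis gene, 1 iron-sulfur assembly gene and 0 genes of the NRF2 and BACH1 list were lower. Heme synthesis genes that rose numbered 2 after median-of-ratios scaling and 0 after quantile normalization or with equal column sums, by the calls of Slc25a38 and Alas1. With no filter 3 genes of iron uptake, storage and export and 3 of copper uptake, chaperones and export were lower. Without SOD1-K123R replicate 1 or 4 the log2 fold change of Atp7a was 1.19 or 1.44. TPM hold no depth, so the counting error of genes near the filter, such as Uros and Slc11a1, is unknown.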

Other observations

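The deposited annotation marks further genes of metal handling that the named lists did not hold, and these were looked at after the table had been seen. Scara5, a receptor for ferritin at the cell surface, fell from 11.4 ± 0.926 to 2.25 ± 0.486 TPM (log2 fold change -1.94), while Frrs1, a ferric-chelate reductase, rose from 21.4 ± 1.89 to 30.3 ± 3.19 TPM (0.48). Cutc, described as a copper transporter, fell from 6.79 ± 1.38 to 3.07 ± 0.764 TPM (log2 fold change -0.94).

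By the deposited GO terms, 13 tested genes were annotated with heme binding, of which 5 rose and 8 fell. Of all tested genes 95.7% passed, 44.6% upward and 51.1% downward. The cytochromes P450 Cyp1b1, Cyp4b1, Cyp4v3 and Cyp7b1 were among those that fell, and Cyp26b1 rose. Of 8 genes annotated with the binding of iron-sulfur clusters, 7 fell and 1, the antiviral gene Rsad2, rose. Pold1 and Pole, catalytic subunits of replicative DNA polymerases, and Xdh, xanthine dehydrogenase, were among those that fell. Other groups went otherwise: for iron homeostasis 9 of 13 rose and 2 fell, and for heme or iron transport 8 of 13 rose and 3 fell. The risers of both groups include the same ferritin rows: Ftl1, Fth1, the pseudogene Fth1-ps5 and the light chain copies LOC120102993 and LOC100360087. All these rows are described as ferritin light or heavy chain, so the 2 counts do not show a rise across that many separate iron genes. For iron ion binding 5 of 14 rose and 9 fell, and for copper ion binding 3 of 6 rose and 3 fell. The groups share genes and were counted after the table had been seen.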
